A study of Mus musculus with 4 samples.

Results

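The genes described here are 9 genes of Schwann cells and peripheral myelin, chosen by symbol from a fixed list (Pmp22, Prx, Pmp2, Ncmap, Drp2, Egr2, Sox2, Foxd3 and Cdh19) among the 27179 gene identifiers of each count table. All 9 were found, and all 9 passed the filter on low counts. They were measured by strand-specific poly(A) RNA-seq in 4 libraries from lumbar spinal cord (segments L4 to L6) of male C57BL/6J mice: 2 titled cuff, from mice with a cuff around the sciatic nerve, a model of lasting neuropathic pain, and 2 titled sham, the control operation, with day 28 after surgery given for the series. The labels give no age, and they do not say whether a library came from 1 mouse or from a pool. The file deposited under each of the 4 titles carries the other condition in its name, and the sources used here do not settle which is right. Groups follow the titles, and each difference between the groups would change sign were the file names the correct ones.

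Schwann cells are the glia of peripheral nerve. They build the myelin of nerve roots and nerves, while oligodendrocytes build the myelin inside the spinal cord. During development neural crest cells that use Foxd3 and Sox10 give Schwann cell precursors, marked by Cdh19, and then immature Schwann cells, marked by Sox2. Egr2 (Krox20) then switches on the myelin genes, among them Pmp22 and Prx. In the adult cord Sox2 is also used by astrocytes and the ependymal cells of the central canal, Egr2 is also an immediate early gene of neurons, and Pmp22 is also expressed by fibroblasts and other non-neural cells, so not all of the 9 genes are specific to Schwann cells. Nerve root left on a dissected piece of cord can carry these transcripts, and its amount is not given in the labels.

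To show where the genes start, the 250 bases before the most upstream start listed in the RefSeq promoter table for 3 of them are given 5′ to 3′ (build GRCm38.p6). Prx and Pmp22 are shown because their levels moved together across the libraries, and Sox2 because its levels did not follow them. Capitals mark a match to ACAAAG or ACAATG, the core letters bound by SOX factors, on either strand.
Prx (chr7:27499074-27499323, plus strand): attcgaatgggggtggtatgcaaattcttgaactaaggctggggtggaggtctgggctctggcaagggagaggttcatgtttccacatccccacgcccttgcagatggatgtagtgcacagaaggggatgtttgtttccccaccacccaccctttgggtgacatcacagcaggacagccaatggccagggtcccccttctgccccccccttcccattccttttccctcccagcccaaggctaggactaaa
Pmp22 (chr11:63128732-63128981, plus strand): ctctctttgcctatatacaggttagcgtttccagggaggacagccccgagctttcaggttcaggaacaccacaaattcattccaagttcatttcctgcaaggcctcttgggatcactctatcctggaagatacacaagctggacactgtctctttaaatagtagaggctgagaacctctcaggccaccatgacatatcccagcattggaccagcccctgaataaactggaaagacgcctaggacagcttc
Sox2 (chr3:34649745-34649994, plus strand): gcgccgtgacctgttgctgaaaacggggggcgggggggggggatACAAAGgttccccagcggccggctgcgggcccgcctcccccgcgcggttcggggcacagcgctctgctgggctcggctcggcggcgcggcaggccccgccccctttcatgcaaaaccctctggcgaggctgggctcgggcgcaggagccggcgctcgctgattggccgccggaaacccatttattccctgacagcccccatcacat
RefSeq windows were found for 6 of the 9 genes (Pmp22, Prx, Ncmap, Egr2, Sox2 and Foxd3), and not for Pmp2, Drp2 and Cdh19. The SOX letters occurred in the Sox2 window, beginning 206 bases before the start, and not in the windows of the other 5, while 25.4% of the most upstream windows of all 27025 genes held them. The EGR letters GCGTGGGCG or GCGGGGGCG, searched on both strands, occurred in none of the 6, and in 3.04% of all. The Prx and Ncmap windows run a few bases past the first base of the annotated gene. That of Egr2 lies wholly inside Egr2 as annotated. These windows say nothing of sites elsewhere in the genes.

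Gene counts summed to between 32936609 and 39461573 per library. Markers of the labelled tissue were present, since 13 central myelin and oligodendrocyte genes summed to between 26850 and 33926 CPM (counts-per-million; library totals scaled by TMM, the trimmed mean of M-values). The 9 genes together summed to 484 and 932 CPM in the sham-titled libraries 1 and 2 and to 848 and 1927 CPM in those titled cuff. The second cuff-titled library stood apart: Scn10a, a sodium channel gene of nociceptors, had 213 counts there and 0 in the other 3, and 12 skeletal muscle genes summed to 747 CPM there and to between 103 and 216 CPM in the others. The fold changes of the 9 genes and the summaries of the lists that it moves most are given with and without it.

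Pmp22, Pmp2 and Ncmap, genes of membrane and lipid-binding proteins of peripheral myelin, were highest in the second cuff-titled library and lowest in the first sham-titled one. The other 2 libraries lay between them. Pmp22, which encodes peripheral myelin protein 22, a small membrane protein of compact myelin (chromosome 11, 63128982 to 63159547 in mm10), was at 613 and 1412 CPM in the cuff-titled libraries 1 and 2 and at 317 and 655 CPM in those titled sham. The groups overlapped, because the first cuff-titled library lay below the second sham-titled one. Its log2 fold change, titled cuff minus titled sham, was 1.06 ± 0.75 (SE, adjusted p = 0.556, edgeR quasi-likelihood test with Benjamini-Hochberg adjustment over 16918 genes). Pmp2, which encodes peripheral myelin protein 2, a fatty acid-binding protein of the cytoplasmic face of myelin (chromosome 3, 10179851 to 10183885), was at 20.7 and 65.3 CPM in the cuff-titled libraries and at 8.21 and 20.3 CPM in those titled sham. Its groups did not overlap, but they were separated only by the gap between 20.3 and 20.7 CPM, and its log2 fold change was 1.59 ± 1.00 (adjusted p = 0.512, edgeR). Ncmap, the gene of noncompact myelin-associated protein (chromosome 4, 135369576 to 135398240), was at 9.01 and 25.8 CPM against 5.31 and 12.0 CPM, from 203 to 882 counts. Its groups overlapped and its log2 fold change was 1.01 ± 0.89 (adjusted p = 0.632, edgeR).

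The Prx and Drp2 proteins form a complex with dystroglycan at the outer Schwann cell membrane, where they help to shape the cytoplasmic bands outside the myelin. Prx, the periaxin gene (chromosome 7, 27499305 to 27520041), was at 60.9 and 208 CPM in the cuff-titled libraries and at 21.8 and 69.3 CPM in those titled sham. The highest library was 9.56 times the lowest, the widest range of the 9 genes, yet the first cuff-titled library lay below the second sham-titled one. The log2 fold change was 1.56 ± 1.14 (adjusted p = 0.568, edgeR). Drp2, dystrophin-related protein 2 (chromosome X, 134404124 to 134456574), took the same order of libraries with a smaller range. It was at 81.1 and 150 CPM in the cuff-titled libraries and at 65.3 and 107 CPM in those titled sham, with overlapping groups and a log2 fold change of 0.42 ± 0.51 (adjusted p = 0.722, edgeR). Its highest library was 2.30 times its lowest. Long noncoding RNA genes overlap Prx (Gm15541) and Egr2 (Gm32255), and a transfer RNA gene lies in Cdh19. The library kit keeps the strand, but no source used here states the strand setting of the counting, so reads of an overlap cannot be assigned with certainty.

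**Figure D1:**
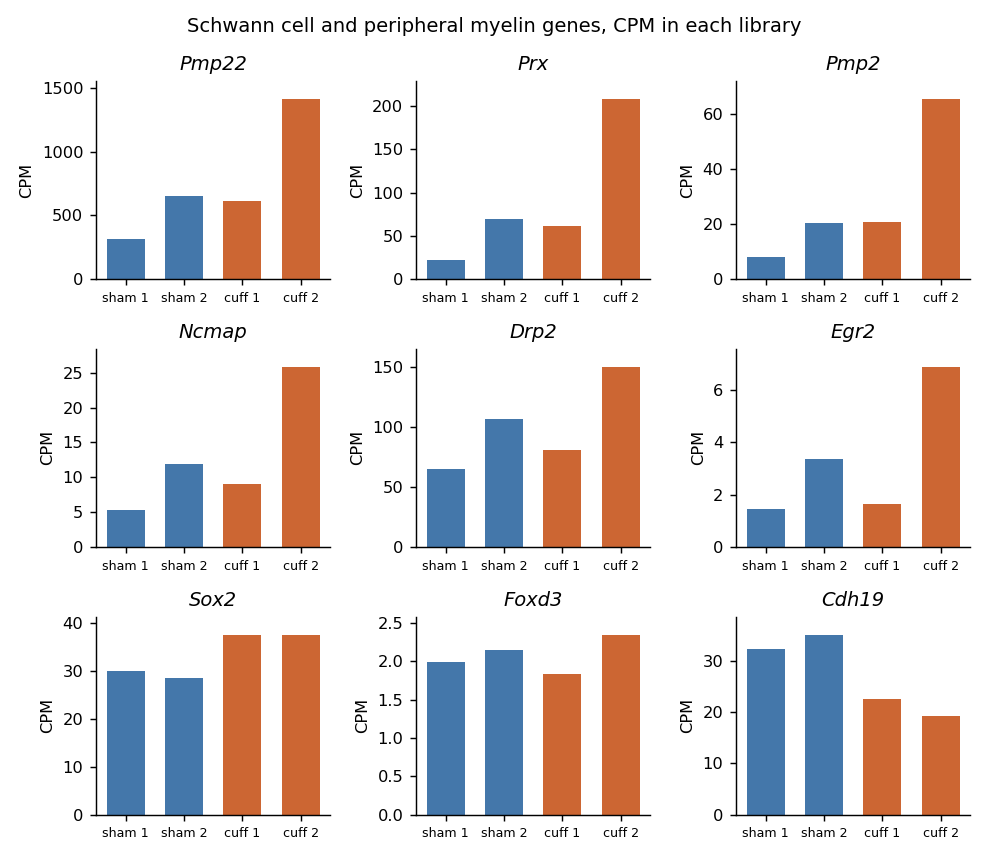
CPM (counts-per-million, vertical axes from 0) of each of the 9 genes in each library, blue for sham-titled libraries and orange for those titled cuff, 1 bar per library. Pmp22, Prx, Pmp2, Ncmap, Drp2 and Egr2 are highest in cuff 2 and lowest in sham 1, while Cdh19 is lower in both cuff-titled libraries (22.5 and 19.3 CPM) than in both titled sham (32.4 and 35.1 CPM).

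Among the transcription factors, Egr2 followed the myelin genes and Sox2 and Foxd3 did not. Egr2, the zinc finger factor that drives Schwann cell myelination (chromosome 10, 67534469 to 67542188), was at 1.64 and 6.89 CPM in the cuff-titled libraries and at 1.46 and 3.37 CPM in those titled sham. These levels rest on 59 and 235 counts against 56 and 130, and the high values were those of the second library of each group. Its log2 fold change was 0.81 ± 0.98 (adjusted p = 0.716, edgeR), and without the second cuff-titled library the sign turned, to -0.56 (adjusted p = 0.862).

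Sox2, an SRY-box factor that holds Schwann cells in the immature state and is also used by central glia (chromosome 3, 34649995 to 34652461), was at 37.6 and 37.5 CPM in the cuff-titled libraries and at 30.0 and 28.6 CPM in those titled sham. The 2 libraries of each group were close together and the groups did not overlap, but the log2 fold change of 0.36 ± 0.13 did not pass the test (adjusted p = 0.132, edgeR). Leaving out the second cuff-titled library gave a log2 fold change of 0.36 for Sox2 as well. Sox2 lies inside the long noncoding RNA gene Sox2ot, so that its counts share the uncertainty on overlapping genes. Foxd3, a forkhead factor of the neural crest (chromosome 4, 99656299 to 99658671), was at 1.83 and 2.34 CPM against 1.99 and 2.15 CPM, from 66 to 83 counts. The groups overlapped, and the log2 fold change was 0.01 ± 0.36 (adjusted p = 0.990, edgeR). For Foxd3 it was -0.18 when the second cuff-titled library was left out.

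Cdh19 was the only one of the 9 genes past the threshold, an adjusted p of 0.05, and it fell. Cdh19 encodes cadherin 19, an adhesion molecule of neural crest derivatives and Schwann cell precursors (chromosome 1, 110888002 to 110977601). It was at 22.5 and 19.3 CPM in the cuff-titled libraries and at 32.4 and 35.1 CPM in those titled sham, from 659 to 1355 counts. The groups did not overlap, and the order of libraries was not that of the myelin genes: the library with the highest Pmp22 and Prx had the lowest Cdh19. The log2 fold change was -0.69 ± 0.15 (adjusted p = 0.0173, edgeR). With DESeq2 it kept the call (-0.70, adjusted p = 0.00294). The call was lost with limma-voom (adjusted p = 0.0523) and with each library corrected for transcript length and GC content (-0.39, adjusted p = 0.124), and its longest transcript has a GC content of 37.4%, the lowest of the 9 genes. Fits of 2 libraries against 1 differed. The call was kept when the first cuff-titled library was left out (-0.86). It was lost when the second cuff-titled library was left out (-0.59), the first sham-titled one (-0.76) or the second sham-titled one (-0.63).

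In all, 1 of 9 genes was called, beside 4.11% of all 16918 genes tested (1.15% higher and 2.96% lower in the cuff-titled libraries), and 3 of 9 (Pmp2, Sox2 and Cdh19) had groups that did not overlap, beside 54.1% of all. A log2 fold change above 0 was found in 8 of the 9 (52.1% of all genes tested), and the median over the 9 was 0.81, against 0.02 over all genes tested. Both depend on the libraries used. Without the second cuff-titled library 5 of the 9 were above 0 and their median was 0.06, and without the first sham-titled one 7 were above 0 with a median of 0.37. The median was 1.46 without the first cuff-titled library and 1.53 without the second sham-titled one. Leaving out the first cuff-titled library gave 7 calls among the 9 (all but Sox2 and Foxd3), beside 11.1% of all genes. Without the second cuff-titled library edgeR called 0 of 9, beside 1.24% of all genes called. Without the first sham-titled one it called 0 of 9, beside 0% of all genes called. Without the second sham-titled one it called 0 of 9, beside 0.0742% of all genes called. An unadjusted p under 0.05 was found for 1 of 9, 2 of 9 and 2 of 9 in these fits, in that order. Those counts are not to be compared with the shares called. An unadjusted p under 0.05 was common over all genes (2260 without the first sham-titled library). No other tool was run on these subsets. On all 4 libraries limma-voom called 0 of the 9 (5 at an unadjusted p under 0.05, beside 3461 of all 16918 genes). In the fit that gave 7 calls, 1 library stood against 2, and the lone library is assumed to vary like the others. There the log2 fold change was 1.49 for Pmp22, 2.15 for Prx, 2.15 for Pmp2, 1.53 for Ncmap, 1.46 for Egr2, 0.75 for Drp2 and -0.86 for Cdh19. Without the second cuff-titled library those of Pmp22, Prx, Pmp2 and Ncmap were 0.33, 0.42, 0.54 and 0.06, and that of Drp2 turned to -0.09 (adjusted p from 0.931 to 0.990 over these 5 genes).

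**Figure D2:**
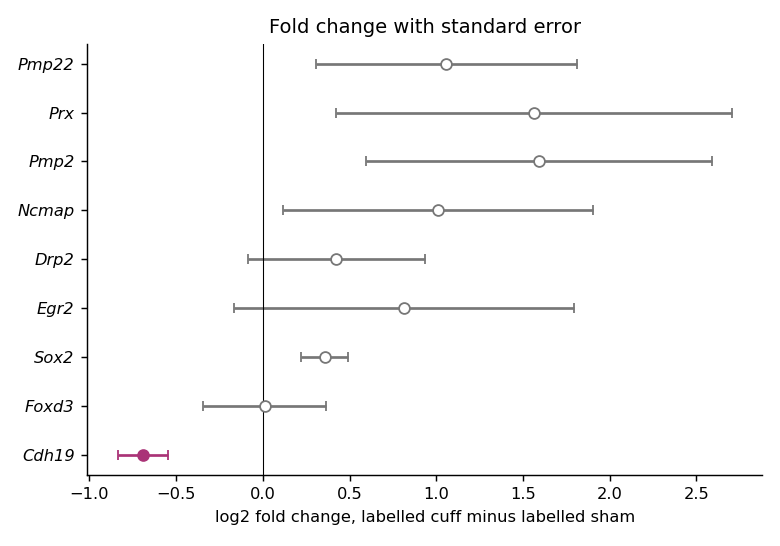
Log2 fold change of each of the 9 genes, titled cuff minus titled sham (horizontal axis), with bars of 1 standard error from edgeR's quasi-likelihood fit of 2 against 2 libraries. The filled point, Cdh19 at -0.69 ± 0.15, passed the threshold, and the open points did not, with standard errors of 0.75 to 1.14 for Pmp22, Prx, Pmp2, Ncmap and Egr2.

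The myelin genes also differed between the 2 libraries of each group. The second cuff-titled library was the highest of the 4 for 7 of the 9 genes (34.5% of all genes tested), and for 6 of them the first sham-titled one was the lowest as well (18.7% of all). Pmp22 was 2.30-fold higher in the second cuff-titled library than in the first, and 2.06-fold higher in the second sham-titled one than in the first. The same within-group ratios were 3.42 and 3.18 for Prx, 3.15 and 2.47 for Pmp2, 2.87 and 2.25 for Ncmap, 4.21 and 2.30 for Egr2 and 1.85 and 1.64 for Drp2. The ratios of the other 3 genes were close to 1, namely 0.998 and 0.954 for Sox2, 1.28 and 1.08 for Foxd3 and 0.858 and 1.08 for Cdh19. On the scale of log2(CPM + 0.5), the second library was at least 2-fold above the first for 5 of 9 genes in the group titled cuff (1.93% of all genes tested) and for 4 of 9 in that titled sham (0.733% of all). It was so in both for Pmp22, Prx, Pmp2 and Ncmap, 4 of 9, beside 0.301% of all genes tested, or 51 genes. Those 51 also held Cldn19 and Dhh of the other peripheral myelin genes and Ogn of the fibroblast genes, and no gene of the other lists described below.

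**Figure D3:**
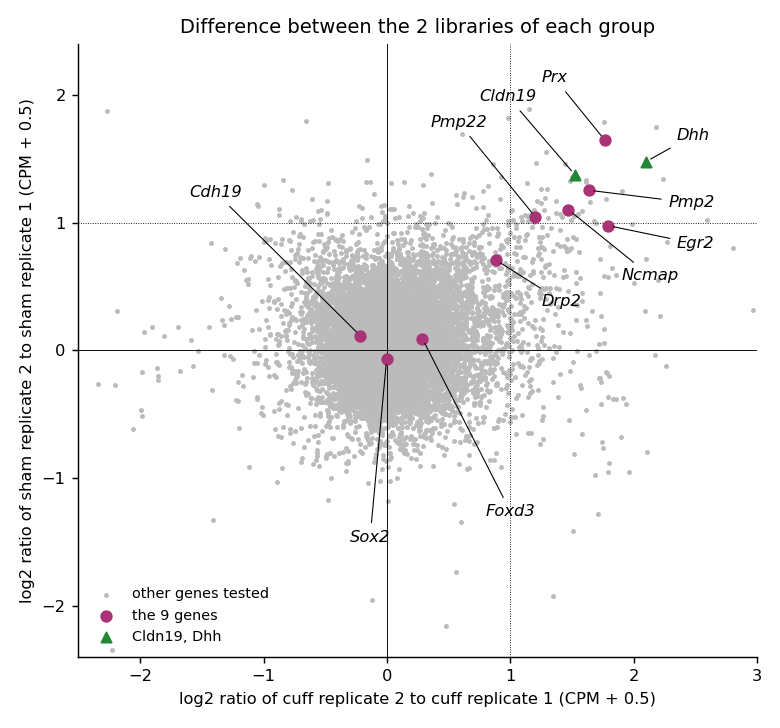
Log2 ratio of replicate 2 to replicate 1 (CPM + 0.5) within the cuff group (horizontal axis) and within the sham group (vertical axis), 1 point per gene tested, with dotted lines at a 2-fold difference (13 of 16918 genes lie outside the axes). Pmp22, Prx, Pmp2 and Ncmap lie beyond both lines, beside Cldn19 and Dhh, while Cdh19, Sox2 and Foxd3 lie among the bulk of genes.

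The myelin genes did not keep 1 fixed ratio to each other. Of 6 such ratios, counts of Prx per count of Pmp2 varied least, from 2.65 in the first sham-titled library and 3.42 in the second to 2.94 and 3.18 in those titled cuff. Counts of Pmp22 per count of Prx ranged more, at 14.6 and 9.45 in the sham-titled libraries and 10.1 and 6.79 in those titled cuff, so that the ratio was lowest where Prx was highest. Counts of Drp2 per count of Prx had a wider range, from 3.0 in the first sham-titled library to 0.721 in the second cuff-titled one, with 1.54 in the second sham-titled one and 1.33 in the first cuff-titled one. Counts of Prx per count of Ncmap were 4.10 and 5.79 in the sham-titled libraries and 6.76 and 8.05 in those titled cuff. In bulk tissue, fewer cells of a type and less RNA per cell cannot be told apart.

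Levels can be compared between genes only per length, here as CPM per kilobase of the longest annotated transcript. Pmp22 was the highest of the 9 in every library, between 174 and 775 CPM per kilobase. The next 4 had close means (20.3 for Pmp2, 16.6 for Prx, 16.3 for Sox2 and 14.1 for Drp2, in CPM per kilobase), and their order changed between libraries beyond those gaps. In the first sham-titled library Sox2 led these 4 at 14.6 CPM per kilobase, before Drp2 at 9.15, Pmp2 at 5.83 and Prx at 4.0. In the second cuff-titled one Pmp2 led at 46.4, before Prx at 38.3, Drp2 at 21 and Sox2 at 18.2. Cdh19 and Ncmap had means of 6.98 and 6.52 CPM per kilobase and also changed places. Egr2 and Foxd3 were the lowest, with means of 1.13 and 0.894, and their ranges overlapped.

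Other genes of peripheral myelin were mixed. Of 13 such genes, 0 were called by edgeR, DESeq2 or limma-voom (3, 3 and 5 had an unadjusted p under 0.05), and their median log2 fold change was 0.27. An unadjusted p under 0.05 was common over all 16918 genes tested, with 3634 in edgeR, 3154 in DESeq2 and 3461 in limma-voom. Such counts for this list and those below, in fits of all 4 libraries, are to be read beside these. Without the first cuff-titled library edgeR called 4 of the 13 (median 0.15), and without the second it called 0 (1 with an unadjusted p under 0.05, median -0.08). Utrn, the gene of utrophin, which binds dystroglycan, was lower in both cuff-titled libraries (93.0 and 90.5 CPM against 111 and 128 CPM) without passing the test (-0.38 ± 0.13, adjusted p = 0.107, edgeR). Adgrg6, an adhesion receptor needed for Schwann cell myelination, was at -0.60 ± 0.22 (adjusted p = 0.125), and Gjb1, the connexin 32 gene of both Schwann cells and oligodendrocytes, at 0.30 ± 0.14 (adjusted p = 0.205).

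Of 13 regulators of the Schwann cell lineage, 1 rose, 1 fell and 11 did not pass (median log2 fold change -0.11). Sox10, the factor that acts with Egr2 on myelin genes and is shared by Schwann cells and oligodendrocytes, rose from 98.2 and 98.6 CPM in the sham-titled libraries to 151 and 135 CPM in those titled cuff (0.54 ± 0.13, adjusted p = 0.0299, edgeR). Nrg1, the axonal growth factor that signals to Schwann cells through ErbB receptors, fell from 21.1 and 23.3 CPM to 15.4 and 10.8 CPM (-0.76 ± 0.18, adjusted p = 0.0279, edgeR). Both calls were lost once length and GC were corrected for (0.22, adjusted p = 0.343 for Sox10 and -0.49, adjusted p = 0.141 for Nrg1), with limma-voom (0.0665 and 0.0702) and with a dispersion prior that is not robust (0.0552 and 0.0628). Without the first cuff-titled library Sox10 lost its call (0.41, adjusted p = 0.163) and Nrg1 kept it (-1.09, 0.000178), and neither passed without any one of the other 3 (adjusted p from 0.123 to 0.285 for Sox10 and from 0.204 to 0.439 for Nrg1). Zeb2, a zinc finger factor needed for myelination, did not pass in edgeR (-0.46 ± 0.14, adjusted p = 0.0673) and passed with DESeq2 (-0.48, adjusted p = 0.0247). The receptor genes Erbb2 and Erbb3 were at 0.53 ± 0.35 and -0.11 ± 0.17 (adjusted p = 0.403 and 0.767).

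Genes of non-myelinating Schwann cells and of Schwann cells in injured nerve showed no call in edgeR, DESeq2 or limma-voom among the 12 of 13 that were tested (0, 1 and 0 had an unadjusted p under 0.05). Without the first cuff-titled library edgeR called 2 of 13. Ngfr, the p75 neurotrophin receptor gene, was at 2.55 and 8.38 CPM in the cuff-titled libraries and at 2.12 and 2.85 CPM in those titled sham (1.13 ± 0.59, adjusted p = 0.351, edgeR). Without the second cuff-titled library its log2 fold change was 0.04 (adjusted p = 0.995), and without the first it was 1.70 (adjusted p = 8.47e-06). Jun, the factor of the injury response in Schwann cells, and Btc, a growth factor gene, were at 0.21 ± 0.14 (adjusted p = 0.418) and -0.74 ± 0.43 (adjusted p = 0.328). Gfap, which non-myelinating Schwann cells share with astrocytes, was at 1250 and 1004 CPM against 1457 and 1112 CPM (-0.19 ± 0.16, adjusted p = 0.531).

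Over 14884 genes with a mean of at least 1 CPM, the 8 whose profile over the 4 libraries was most like that of Prx were Lox, Pmp2, Cd177, Cldn19, Anxa1, Ngp, Plbd1 and Dhh. Likeness was the largest difference in any library between the log2(CPM + 0.5) values, each centred on its gene's mean, and it ran from 0.12 for Lox to 0.38 for Dhh. Only some are peripheral myelin genes: Cldn19, the claudin of Schwann cell tight junctions, was at 10.3 and 30.7 CPM in the cuff-titled libraries and at 4.13 and 11.5 CPM in those titled sham, and Dhh, the desert hedgehog signal of Schwann cells, at 1.66 and 8.76 CPM against 0.758 and 3.01 CPM. Cd177 and Ngp are neutrophil genes, and Ngp was at 39.1 and 102 CPM against 13.3 and 30.6 CPM. Lox, the collagen cross-linking enzyme lysyl oxidase, was at 2.52 and 9.73 CPM against 0.471 and 2.85 CPM. Of the 9 genes, Pmp2 came second in this order, Pmp22 30th, Ncmap 37th, Egr2 101st and Drp2 246th, while Sox2, Foxd3 and Cdh19 came 2718th, 3954th and 14119th. The order rests on all 4 libraries, the second cuff-titled one included, and describes these libraries alone.

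**Figure D4:**
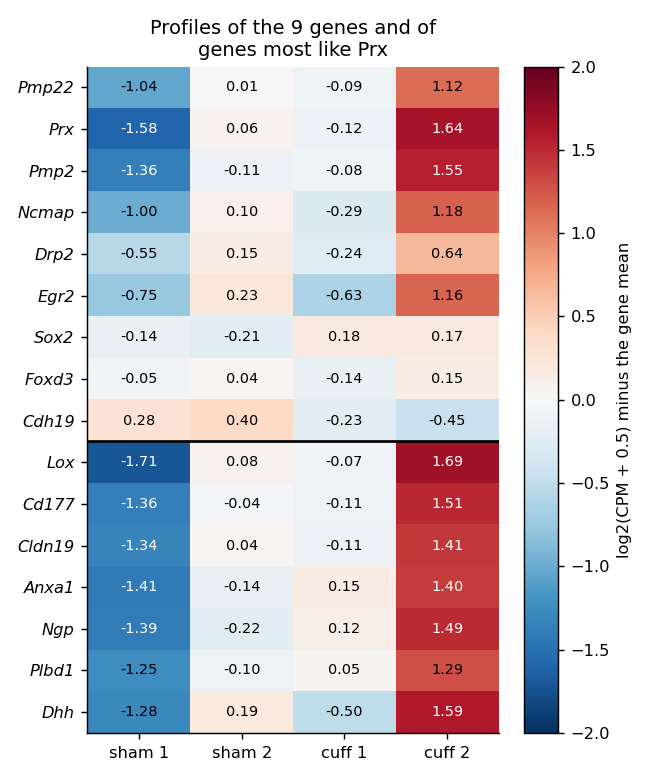
Log2(CPM + 0.5) minus the gene's mean over the 4 libraries (colour and printed value) for the 9 genes (above the line) and for the other 7 of the 8 genes most like Prx (below it), 1 column per library. Prx runs from -1.58 in sham 1 to 1.64 in cuff 2, and Cdh19 from -0.45 in cuff 2 to 0.40 in sham 2.

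Markers of 3 other cell types were high in the second cuff-titled library. Summed over their list, the fibroblast genes also took the order of Prx over the 4 libraries. Many single fibroblast genes did not. Col1a1, Col1a2, Col3a1, Bgn, Dpt and Osr2 were higher in the first cuff-titled library than in the second sham-titled one. Slc22a6 was lowest in the first cuff-titled library. The part of these 3 cell types in the values of the peripheral myelin genes was not tested. The 13 leptomeningeal and nerve fibroblast genes summed to 354 and 754 CPM in the cuff-titled libraries and to 197 and 404 CPM in those titled sham. In this list 12 of the 13 were highest in the second cuff-titled library (all but Dpt), and 12 were lowest in the first sham-titled one (all but Slc22a6). Of the 12 tested 0 were called by edgeR or limma-voom (1 and 7 had an unadjusted p under 0.05, median log2 fold change 0.83) and 1 by DESeq2, the matrix gene Bgn (adjusted p = 0.0267). Without the first cuff-titled library edgeR called 11 of 13 (median 1.22), and without the second it called 0 of 12 (1 with an unadjusted p under 0.05, median 0.25). In edgeR on all 4 libraries Bgn was at 0.82 ± 0.23 (adjusted p = 0.0744), and at 0.44 (adjusted p = 0.678) without the second cuff-titled one, followed by Dpt (0.77 ± 0.37, adjusted p = 0.241) and Col1a2 (0.98 ± 0.39, adjusted p = 0.299). The 13 sensory ganglion neuron genes summed to 143 and 174 CPM against 139 and 134 CPM, and 11 of the 13 were highest in the second cuff-titled library. Of their defining markers Scn10a and Mrgprd had 0 counts in the other 3 libraries. Of the 9 tested 0 were called by edgeR, DESeq2 or limma-voom (3, 3 and 2 had an unadjusted p under 0.05, median 0.79). In edgeR Trpv1 was at 2.91 ± 0.94 (adjusted p = 0.0796, and 0.0104 with edgeR's likelihood ratio test) and P2rx3 at 0.79 ± 0.29 (adjusted p = 0.119). Trpv1 rests on few counts, 14 and 15 in the cuff-titled libraries and 2 and 2 in those titled sham. Without the first cuff-titled library 8 of 13 were called (median 1.97), and without the second 0 of 9 (1 with an unadjusted p under 0.05, median 0.18). The 12 muscle genes had a different order, since they summed to less in the second sham-titled library (103 CPM) than in the first (149 CPM), where Prx was lowest. Of these 12, 0 were called by edgeR, DESeq2 or limma-voom (0, 10 and 11 had an unadjusted p under 0.05, median 1.83), with Eno3 at 1.27 ± 0.53 (adjusted p = 0.332), Actn3 at 1.82 ± 0.77 (adjusted p = 0.365) and Ckm at 2.24 ± 0.93 (adjusted p = 0.369). In edgeR 4 of 12 were called with a prior that is not robust, 12 of 12 without the first cuff-titled library (median 2.398) and 1 of 12 without the second (median 0.75).

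Markers of the cord's own glia did not follow Prx. The 13 central myelin genes summed to 33926 and 29366 CPM in the cuff-titled libraries and to 32762 and 26850 CPM in those titled sham, so that the second library of each group was the lower, where Prx was the higher. Of these 13, 0 were called by edgeR or limma-voom (4 and 4 had an unadjusted p under 0.05, median 0.17) and 1 by DESeq2. In edgeR Opalin was at 0.38 ± 0.15 (adjusted p = 0.145) and Ermn at -0.51 ± 0.20 (adjusted p = 0.191). Of 10 astrocyte and ependymal genes, which share Sox2 with immature Schwann cells, 1 fell, the water channel gene Aqp4 (-0.63 ± 0.15, adjusted p = 0.0248, edgeR). DESeq2 called 2, Aqp4 (adjusted p = 0.000621) and Gja1 (0.00637). Aqp4 fell from 824 and 811 CPM to 593 and 463 CPM, and its call was lost after correction for length and GC (-0.35, adjusted p = 0.117), with limma-voom (0.0605), with a prior that is not robust (0.0596) and without any 1 library except the first cuff-titled one (adjusted p from 0.168 to 0.436). In edgeR Gja1 and Slc1a3 were at -0.44 ± 0.13 and -0.22 ± 0.13 (adjusted p = 0.0636 and 0.339). Of the 10 genes 4 had a log2 fold change above 0, as Sox2 did, and the median was -0.12.

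Egr2 is also counted among the immediate early genes. Of 11 such genes 0 were called by edgeR, DESeq2 or limma-voom (3, 2 and 3 had an unadjusted p under 0.05, median 0.18). The ratio of the highest to the lowest library ran from 1.16 for Dusp1 to 2.95 for Egr3, and it was 4.70 for Egr2. Npas4 (0.81 ± 0.24, adjusted p = 0.0681), Arc (0.41 ± 0.14, adjusted p = 0.110) and Ier2 (0.65 ± 0.27, adjusted p = 0.168) were nearest, and Egr1, a relative of Egr2, was at 39.9 and 38.4 CPM against 27.1 and 39.4 CPM. Among the relatives of Pmp2 and Pmp22, 0 of 7 were called by edgeR, DESeq2 or limma-voom (1 in each had an unadjusted p under 0.05, median 0.26), and edgeR called 2 of 7 without the first cuff-titled library. Fabp7, the fatty acid-binding protein of central glia, was at 41.9 and 43.7 CPM against 32.3 and 33.6 CPM (0.38 ± 0.13, adjusted p = 0.110). Fabp4 (1.16 ± 0.54, adjusted p = 0.236) and Emp3 (0.67 ± 0.36, adjusted p = 0.296) were low, at no more than 5.51 CPM in any library.

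**Figure D5:**
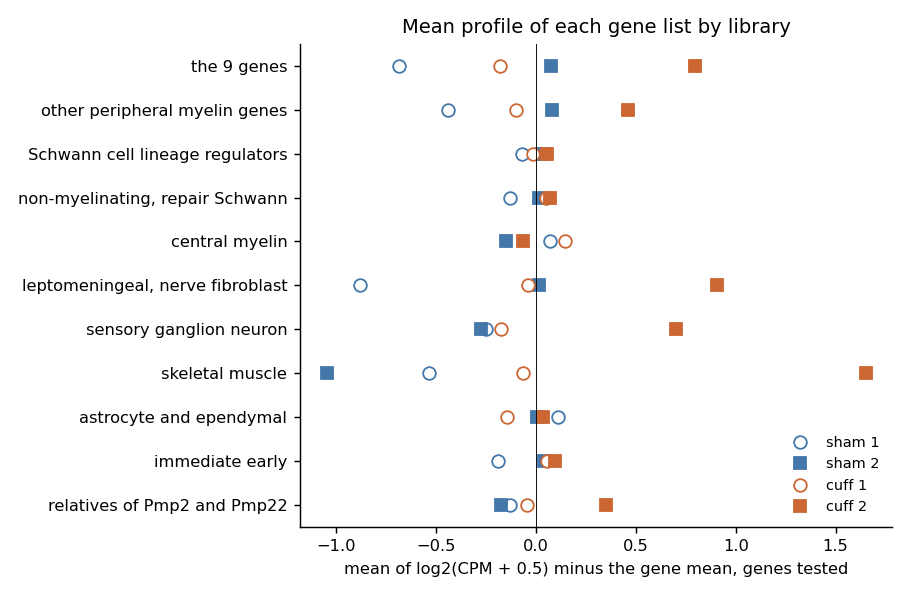
Mean over the tested genes of each list of log2(CPM + 0.5) minus the gene's mean (horizontal axis), 1 point per library, blue for sham and orange for cuff, circles for replicate 1 and squares for replicate 2. The 9 genes run from -0.69 in sham 1 to 0.80 in cuff 2, as the leptomeningeal and nerve fibroblast genes do (-0.88 to 0.91), and the central myelin genes lie between -0.15 and 0.15.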

How the data were processed

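Per the submitters' processing notes the reads passed through Trimmomatic 0.30, HISAT2 2.0.1 (genome mm10) and featureCounts. No source used here states the annotation, the strandedness setting or the counting unit (read or pair). What was deposited is a raw count for each Entrez identifier in each library. In 1 deposited file identifier and count were joined by a literal backslash and letter and were split there. Of 27179 identifiers 25275 matched a RefSeq symbol (GRCm38.p6), 18 more matched through GENCODE M21, and 1886 matched none.

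Samples were grouped by title. Genes were filtered with filterByExpr (16918 left), scaled by TMM and tested with edgeR 4.0.16 (quasi-likelihood, robust, two-sided) in R 4.3.3, with limma 3.58.1 and DESeq2 1.42.0 as alternatives. The steps were run on simulated counts drawn from the means and dispersions fitted to these libraries. Such counts cannot show how the test behaves with 1 library that stands apart. No label says that libraries came from separate animals, so p-values measure the spread between these libraries, which may be technical. No library was a copy of another (chi-square per degree of freedom from 24.2 to 69.1). CPM use the TMM-scaled totals of tested genes, standard errors are the unshrunk coefficient over the square root of F, and lengths are those of the longest GENCODE M21 transcript. The length and GC correction used local regression offsets (span 0.3) over 15465 genes. Alternatives were other scalings, filters, tests and priors, a replicate block and leaving out each library. The members, the lists and the naming rule were chosen with earlier results of these data known. The rule named all 9 members, every called gene and up to 3 genes with the smallest p of each list, and the 8 genes most like Prx. Scn10a, Mrgprd, Gfap, Ogn, Erbb2, Erbb3, Egr1, Egr3, Dusp1, Slc22a6, Col1a1, Col3a1, Osr2 and the genes that overlap members were added after their values were seen. Some genes that the rule names are not reported here.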

Additional observations from a re-analysis of the deposited data

How the results depend on the processing

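The number of genes past the threshold was 696 (28% of them higher). It was 1079 with DESeq2, 147 with limma-voom, 1046 with the likelihood ratio test, 237 with a prior that is not robust, 1292 with no filter and 59 with the length and GC correction, and between 0 and 1928 with each library left out in turn. The share that was higher was 39.7% of 532 with total counts in place of TMM, 44.2% with the replicate block, 51.6% with the block and the length and GC correction, 38.5% without the second sham-titled library and 73.1% without the second cuff-titled one. The number of the 9 genes called was 1, and it was 0 with limma-voom and with the length and GC correction. An unadjusted p under 0.05 was found for 5 of 9 with limma-voom (3461 of all 16918 genes) and for 2 of 9 with the correction (2678 of 15465). The number called also changed with the library left out. With the replicate block it was 5 of 9 (554 of all genes), adding Pmp22, Prx, Pmp2 and Ncmap to Cdh19, beside 7 of the 12 fibroblast genes, and with the block and the length and GC correction together it was 4 (516 of all genes, the same 4 without Cdh19). The titles give a number only. Deviations from the group mean correlated at 0.116 between same-numbered libraries. This is a single value for both pairs, since the 2 libraries of a group deviate by equal and opposite amounts. It is not shown that same-numbered libraries belong together. Of 144 fold changes of the 9 genes under alternatives, 115 kept direction and side of the threshold, 6 lost the call, 14 gained one and 9 turned their sign. Foxd3, at 0.01, turned to -0.0046 with RLE scaling, -0.0045 with DESeq2, -0.0005 with limma-voom, -0.34 with the length and GC correction and -0.34 with that correction and the replicate block. The range with a library left out was -0.18 to 0.13 for Foxd3, -0.56 to 1.53 for Egr2 and -0.09 to 0.82 for Drp2 (-0.0881 without the second cuff-titled library). CPM on the total count of all genes differed from those on TMM-scaled totals by more than the spread between replicates in 1 of 36 values, Sox2 in the second library titled cuff (38.9 against 37.5 CPM). The causes of these changes were not tested. Egr2 and Foxd3 rest on at most 235 counts in any library, and differences in them smaller than their counting error were not detectable at this depth.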
